A study of Mus musculus with 6 samples.

Results

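BCR-ABL is a fusion of the breakpoint cluster region gene BCR with the tyrosine kinase gene ABL1. The kinase of the fusion is always active, and phosphotyrosines on it and on its substrates dock adaptor proteins that lead to Ras, to PI3K and to the cytoskeleton, while the transcription factors Stat5a and Stat5b are phosphorylated and enter the nucleus. In chronic myeloid leukemia these proteins carry the growth and survival signal that the kinase inhibitor imatinib cuts off. The mouse genes described here are the parent genes Bcr and Abl1, the Abl1 relative Abl2, and 7 genes for proteins next to the fusion: the adaptors Crk, Crkl, Grb2 and Shc1, the docking protein Gab2, and Stat5a and Stat5b. They were chosen by name for their place in the pathway, with earlier results of these data known, and all 10 were found by symbol among the 36083 genes of the deposited table.

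RNA was measured in lineage-negative blast crisis CML (bcCML) cells, the immature leukemic fraction, from the spleens of transplanted mice. Donor KLS cells (c-Kit+, lineage-negative, Sca-1+ stem and progenitor cells) of B6 background came from WT mice or from Sdc1-/- mice, in which the signal peptide of the heparan sulfate proteoglycan Syndecan-1 is disrupted. Cells of both groups carried retroviral BCR-ABL and retroviral NUP98-HOXA9, so no library lacks the oncogenes, and doubly positive cells were transplanted, per the labels into NSG mice, a strain without mature B, T and NK cells of its own, whereas the general methods name CD45.1 mice for primary transplants. The labels name 3 libraries in each group and give no age of the mice, for which the study states only ranges over all its mice. They do not say whether each library is a mouse of its own. A legend of the study describes its RNA-seq of lineage-negative WT bcCML as 3 technical replicates. If these are the WT libraries used here, their spread is technical, and that of Sdc1-/- may be as well. The p-values measure only the spread between these libraries. The fusion is expressed from an MSCV vector together with the surface marker NGFR, not from the mouse Bcr gene.

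The input was 150 ng of RNA a library, sequenced as single reads of 75 bases. Values are transcript abundances (TPM), which correct for transcript length, rescaled between libraries by the authors, so the sums ran from 944973 to 1058263 and the number of reads is unknown. Sdc1, the targeted gene, stood at 1.75, 1.21 and 1.51 in the libraries labelled WT and at 3.85, 3.80 and 4.12 in those labelled Sdc1-/-. The targeted mRNA was thus higher under the label Sdc1-/-, and WT and Sdc1-/- below mean the libraries so labelled. Whether the labels were exchanged or the disrupted allele is still transcribed was not tested, and every direction below would turn if the labels were exchanged. The progenitor genes Kit, Cd34, Myb, Flt3 and Hoxa9 and the leukocyte gene Ptprc were all above 5 in every library. With Msi2 they form a list of 7, all called under the deposited scaling. Kit, Myb, Hoxa9 and Msi2 were higher and Cd34, Flt3 and Ptprc lower, with the largest difference in Flt3 (a log2 fold change of -0.70). With libraries scaled to equal sums Cd34 lost its call (-0.095, limma adjusted p = 0.068), and Ptprc kept its call in 14 of 15 alternatives. The background for all marker counts here is 60.7% of tested genes called, 29.3% higher and 31.3% lower. Megakaryocyte markers had 1 higher and 3 lower genes, with sums of 476 to 503 in WT and 486 to 499 in Sdc1-/-. Both endothelial and stromal markers that were tested were lower, and which cells expressed them was not tested. The other 4 of the 6 listed were below 1 in every library. The sums over all 6, of 21.9 to 23.4 in WT and of 17 to 17.3 in Sdc1-/-, thus came almost wholly from the tested markers. All 5 T and NK cell markers were below 1 in every library, as were 3 of 4 B cell markers. Markers of neutrophil, macrophage and erythroid cells were present and mostly lower in the libraries labelled Sdc1-/-. For 6 of 6 markers of the neutrophil lineage the call was lower, with a summed value of 3711 to 3742 in WT and 1348 to 1426 in Sdc1-/-. The stage of the cells that express them was not tested. The 7 erythroid markers were lower too, with sums of 9447 to 10142 and of 5200 to 5601, and 4 of the 5 macrophage markers tested were lower, with sums over 7 genes of 34.3 to 36.7 and of 15.8 to 18.3. The part of these cells in the differences below was not tested, and in bulk RNA fewer cells of a type and less RNA per cell cannot be told apart.

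In the libraries labelled Sdc1-/-, 3 of the 10 genes were higher and 5 were lower, and Bcr and Abl1 did not pass the test. Abl2, Crkl and Stat5a were the higher genes, and Gab2, Crk, Stat5b, Shc1 and Grb2 the lower ones. The test was limma on log2(value + 1), adjusted by Benjamini-Hochberg over the 12155 genes whose mean reached 1, and a call is an adjusted p under 0.05. All 10 genes passed that minimum. The 8 calls stand against a background in which 60.7% of all tested genes were called, 29.3% higher and 31.3% lower, so their number is not particular to these genes. The same 8 genes had groups that did not overlap, 3 higher and 5 lower, as did 66.7% of the genes tested (32.6% higher and 34.2% lower). Over all 10 genes the log2 fold changes had a median of -0.15, against -0.0097 over all tested genes. When all libraries were scaled to equal sums of 1000000, the median of all genes moved by 0.13 on the log2 scale. Under that scaling 4 of the genes were higher, with Bcr among them, and only Gab2 was lower. The background was then 43.5% higher and 19.6% lower. Gab2, Crkl, Abl2 and Stat5a kept their calls under that scaling, and Crk, Stat5b, Shc1 and Grb2 did not.

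**Figure D1:**
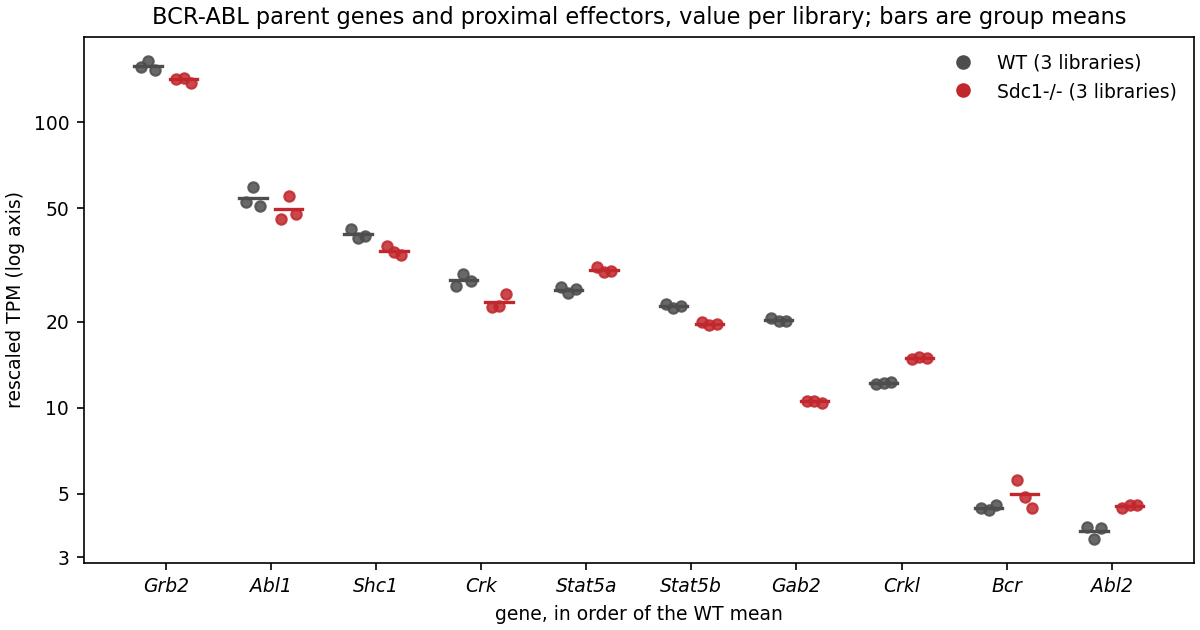
Value of each gene (rescaled TPM, log axis) in each of the 3 WT libraries (grey) and the 3 libraries labelled Sdc1-/- (red), with a bar at the group mean, for the 10 genes in order of their WT mean. Gab2 drops from about 20.3 to 10.6 with no overlap, Crk and Crkl move toward each other, Stat5a and Stat5b move apart, and the points of Bcr and of Abl1 overlap between the groups.

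In WT bcCML the levels ran over a wide range, from 157 ± 6.21 for Grb2 to 3.70 ± 0.19 for Abl2 (SD, n = 3). Grb2 had the highest level, and its mean was 2.90 times that of Abl1, the next gene. Grb2 was at the 97.5th percentile of the genes in the deposited data, with each symbol counted once. Of the 36083 genes, 11369 were at 0 in every library. Shc1, Crk, Stat5a, Stat5b, Gab2, Crkl and Bcr followed in this order, and no neighbours in the order had library ranges that overlapped. In the libraries labelled Sdc1-/- the order was Grb2, Abl1, Shc1, Stat5a, Crk, Stat5b, Crkl, Gab2, Bcr and Abl2. Stat5a stood above Crk and Crkl above Gab2, the reverse of WT, and only the lowest pair, Bcr and Abl2, had ranges that overlapped.

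Mouse Bcr (ENSMUSG00000009681, chr10:75060592-75184921 on GRCm38, plus strand) encodes a protein with a serine/threonine kinase part and domains that act on small GTPases. Its values were 4.47, 4.41 and 4.56 in WT and 5.61, 4.87 and 4.46 in Sdc1-/-. The WT libraries lay close together, with a coefficient of variation of 1.73%, while those labelled Sdc1-/- spread over 11.7% and the lowest of them fell inside the WT range. The log2 fold change was 0.12 (95% interval -0.064 to 0.31, adjusted p = 0.22 from limma). Without replicate 1 of Sdc1-/-, the library with the highest value, it was 0.046. With equal sums it was 0.24, with an adjusted p of 0.028 from limma.

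Abl1 (ENSMUSG00000026842, chr2:31688376-31804227, plus strand), the nonreceptor tyrosine kinase, had values of 52.4, 59.2 and 50.9 in WT and of 45.9, 55.1 and 47.6 in Sdc1-/-. The groups overlapped, and replicate 2 was the highest library of either group. The log2 fold change was -0.13 (95% interval -0.33 to 0.066, adjusted p = 0.22 from limma), and 0.017 with equal sums. It was -0.064 without WT replicate 2, -0.078 without Sdc1-/- replicate 1 and -0.21 without Sdc1-/- replicate 2 (limma, adjusted p = 0.052). The value counted for Abl1 was thus the higher of the parent genes, and the part of the introduced fusion in it was not tested. Bcr stood at 0.0853, 0.0745 and 0.0896 of the Abl1 value in the WT libraries. In the libraries labelled Sdc1-/- the ratio was 0.122, 0.0884 and 0.0937. The log2 ratio of Bcr to Abl1 differed by 0.28 with overlapping groups (exact permutation test, two-sided, p = 0.2), and by 0.14 without Sdc1-/- replicate 1.

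These values are counted on mouse transcripts, and reads of the introduced fusion that match them would be counted with the mouse gene. The study's quantitative PCR primers for BCR-ABL were compared with the mouse genes. A legend of the study describes BCR-ABL as a positive control of quantitative PCR in a human bcCML cell line. Whether the introduced fusion holds these sequences was not tested. The primers are written from 5′ to 3′ above the nearest site in the coding part of mouse Bcr (forward) and of mouse Abl1 (reverse, given in the direction of the primer), where capitals mark the bases that differ.
forward primer: tgctgaccaactcgtgtgtg
mouse Bcr site: tgctgaccaactcAtgtgtA
reverse primer: ccattccccattgtgattatagc
mouse Abl1 site: ccattccccattgtgattataAc
The forward primer of 20 bases had 2 mismatches and the reverse primer of 23 bases had 1. Of the mouse transcripts in GENCODE M21, 0 held either primer exactly. How much of the Bcr and Abl1 values came from the fusion was not tested. Against other mouse genes, of the words of 31 bases in their annotated transcripts, 0 of 8156 for Bcr and 271 of 11620 for Abl1 (2.33%) occurred in transcripts of another gene.

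Abl2 and Abr are the closest relatives of the parent genes. Abl2 (ENSMUSG00000026596, chr1:156558786-156649568, plus strand), the second Abl kinase, had values of 3.84, 3.48 and 3.79 in WT and of 4.48, 4.57 and 4.57 in Sdc1-/-. Every library labelled Sdc1-/- lay above every WT library, with a log2 fold change of 0.24 (limma, adjusted p = 0.0087, with a standard error, SE, of 0.056). Abl2 made up 6.43% ± 0.77 of the summed level of both Abl genes in WT and 8.44% ± 0.68 in Sdc1-/- (SD, n = 3). Abr, a relative of Bcr with the same GTPase domains but without the kinase part of Bcr, fell from 8.72 ± 0.63 to 5.71 ± 0.13 (SD, n = 3), with a log2 fold change of -0.53 (limma, adjusted p = 0.00026). Bcr stood at 0.474, 0.524 and 0.549 of the Abr level in WT and at 0.984, 0.833 and 0.798 in Sdc1-/-.

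A ratio of 2 genes within a library does not depend on the scaling between libraries, so 5 ratios of related genes were compared. Bcr over Abr was 0.75 higher on the log2 scale in Sdc1-/-, Crkl over Crk 0.55 higher, Stat5b over Stat5a 0.44 lower (a difference of -0.44) and Abl1 over Abl2 0.43 lower (a difference of -0.43). In these 4 ratios the groups did not overlap. Of single tested genes 66.7% had groups without overlap, and the share among ratios of other gene pairs was not computed. Each had a p of 0.1 in the two-sided exact permutation test, the smallest that 3 against 3 libraries allow, and of 0.125 adjusted over the 5 ratios, so none can pass 0.05 in this design. The fifth, Bcr over Abl1, had an adjusted p of 0.2 in the exact permutation test.

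**Figure D2:**
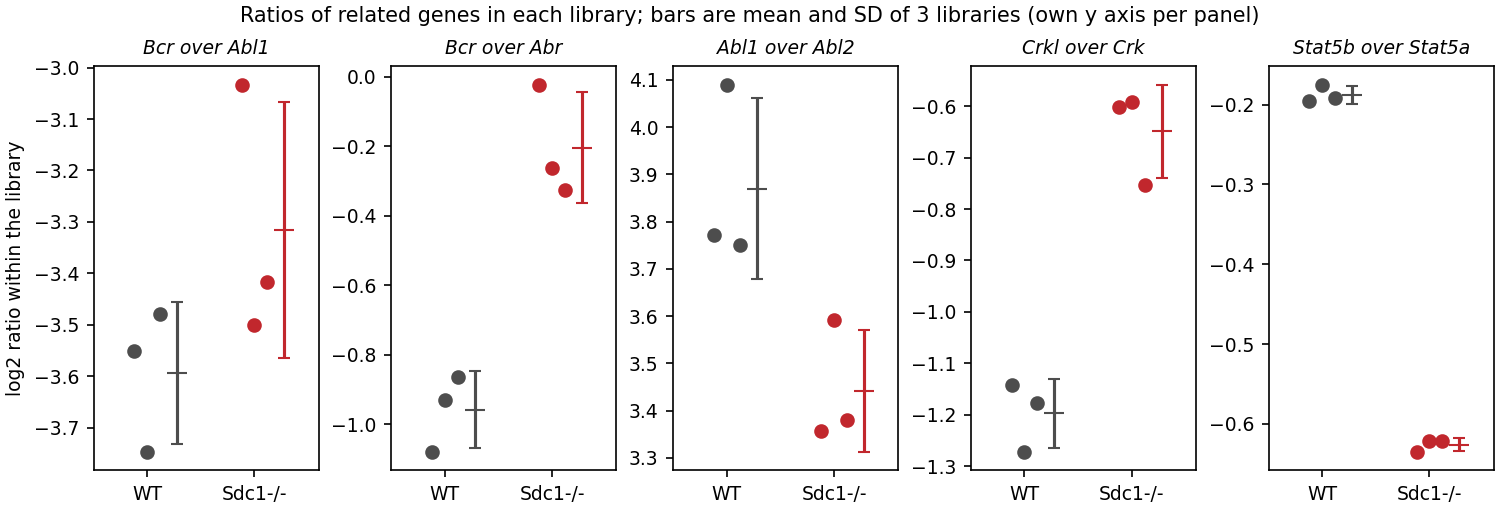
Log2 ratio of 5 pairs of related genes within each library, for WT (grey) and Sdc1-/- (red), with the mean and SD of 3 libraries beside the points; each panel has its own y axis. Stat5b over Stat5a has the tightest groups, at -0.19 ± 0.011 and -0.63 ± 0.008, and Bcr over Abl1 is the only pair in which the groups overlap.

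Gab2 (ENSMUSG00000004508, chr7:97081586-97308946, plus strand), the docking protein that Grb2 ties to the BCR part of the fusion and that recruits PI3K and the phosphatase Shp2, had values of 20.7, 20.1 and 20.1 in WT. In Sdc1-/- they were 10.6, 10.6 and 10.4. The spread within a group was below 2% of its mean, and the gap between the groups was many times that spread. The log2 fold change was -0.88 (limma, adjusted p = 3.5e-06, SE 0.036), and its rank by size among the 3810 genes called lower was 460. It lay between -0.94 and -0.74 over all 15 alternatives, with an adjusted p of at most 0.00013 from limma. Gab2 stood at 13.3, 12.2 and 13.2 per 100 of Grb2 in WT and at 7.52, 7.40 and 7.60 in Sdc1-/-. The other family members were scarce, with Gab1 below the minimum mean for a test at 0.648 ± 0.160 in WT and 0.455 ± 0.0847 in Sdc1-/- (SD, n = 3), and Gab3, not called, at 1.24, 1.16 and 1.19 in WT and 1.05, 1.07 and 0.866 in Sdc1-/-. Gab2 thus made up 91.7% ± 0.59 of the summed Gab level in WT and 87.9% ± 1.18 in Sdc1-/- (SD, n = 3). That sum was 22.5, 22.1 and 21.9 in WT and 12.2, 12.1 and 11.7 in Sdc1-/-.

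Grb2 (ENSMUSG00000059923, chr11:115644045-115708597, minus strand) links phosphotyrosine to the Ras exchange factors Sos1 and Sos2. It stood at 156, 164 and 152 in WT and at 142, 143 and 137 in Sdc1-/-. The groups did not overlap, with a log2 fold change of -0.16 (limma, adjusted p = 0.0086, SE 0.038), but the call was lost with equal sums (-0.013) and with quantile normalization (-0.090, adjusted p = 0.071 from limma). Shc1 (ENSMUSG00000042626, chr3:89418443-89430027, plus strand), an adaptor that gives Grb2 a further docking site, had values of 42.1, 39.2 and 40.1 in WT and of 36.8, 35.2 and 34.3 in Sdc1-/-. Its groups did not overlap either, with a log2 fold change of -0.19 (limma, adjusted p = 0.0073, SE 0.042), and with equal sums it was -0.042 and not called. Part of their sequence is shared with other annotated genes. The 355 of 2938 words of 31 bases that Grb2 shared (12.1%) all occurred in Gm12791, listed at a mean of 0.425, and Shc1 shared 581 of 5751 words (10.1%), 577 of them with AC123951.1, for which no value was used here.

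Crk and Crkl are adaptors of the same build, and Crkl is a major tyrosine-phosphorylated substrate of BCR-ABL in CML cells. Crk (ENSMUSG00000017776, chr11:75679259-75706908, plus strand) had values of 26.7, 29.5 and 27.9 in WT and of 22.5, 22.7 and 25.1 in Sdc1-/-. Crkl (ENSMUSG00000006134, chr16:17451987-17487434, plus strand) went the other way, from 12.1, 12.2 and 12.3 to 14.8, 15.1 and 14.9. Neither gene had groups that overlapped. The log2 fold change was -0.25 for Crk (limma, adjusted p = 0.0075, SE 0.057) and 0.27 for Crkl (limma, adjusted p = 0.00065, SE 0.036). With equal sums Crk was at -0.11 and not called, while Crkl was at 0.41 and called. Crkl made up 31.2%, 29.3% and 30.6% of the pair in WT and 39.7%, 39.9% and 37.2% in Sdc1-/-. The sum of the pair was 40.3 ± 1.49 in WT and 38.4 ± 1.43 in Sdc1-/- (SD, n = 3), and its groups overlapped under the deposited scaling. It was not computed with equal sums. The genes can be told apart by short reads, since the longest run of bases common to their coding sequences was 23 bases. The end of that run is shown with the bases after it, with capitals where the genes differ.
Crk, coding bases 546 to 575: tcctgtcccttacgtGgaGaagTAtAGACC
Crkl, coding bases 519 to 548: tcctgtcccttacgtTgaAaagCTtGTGAG
No word of 31 bases in Crkl transcripts occurred in another gene, and 69 of 4774 (1.45%) in Crk did.

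Stat5a and Stat5b lie next to each other on chromosome 11, at chr11:100859351-100885169 on the plus strand (ENSMUSG00000004043) and at chr11:100780731-100850724 on the minus strand (ENSMUSG00000020919), with 8626 bases between them. Both are transcription factors of cytokine receptor signalling that BCR-ABL activates. Stat5a had values of 26.5, 25.2 and 26.0 in WT and of 31, 29.9 and 30.1 in Sdc1-/-. Stat5b had values of 23.1, 22.4 and 22.8 in WT and of 19.9, 19.5 and 19.6 in Sdc1-/-. The neighbours therefore differed in opposite directions with no overlap in either. The log2 fold change was 0.22 for Stat5a (limma, adjusted p = 0.0015, SE 0.035) and -0.20 for Stat5b (limma, adjusted p = 0.0020, SE 0.034), and with equal sums it was 0.36 for Stat5a and -0.060, not called, for Stat5b. Stat5a made up 53.4%, 53.0% and 53.3% of the pair in WT and 60.8%, 60.6% and 60.6% in Sdc1-/-. The sum of both was 49.6, 47.6 and 48.8 in WT and 50.9, 49.4 and 49.6 in Sdc1-/-, with overlapping groups under the deposited scaling. This sum depends on the scaling and was not computed with equal sums.

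The split between Stat5a and Stat5b rests on the reads that differ. Their coding sequences share an unbroken run of 324 bases, from base 571 to base 894 in both genes, and reads of 75 bases inside it fit either gene. The window at its end shows the first base that differs.
Stat5a, coding bases 880 to 909: cgcagggctgagcacCtgtgccagcagctg
Stat5b, coding bases 880 to 909: cgcagggctgagcacTtgtgccagcagctg
In all, 836 words of 31 bases occurred in both genes, 11.5% of those of Stat5a and 15.1% of those of Stat5b. The values per gene do not show how the authors' tool divided such reads. For the Abl genes, the longest common coding run was 35 bases, and for Bcr and Abr 28 bases.

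**Figure D3:**
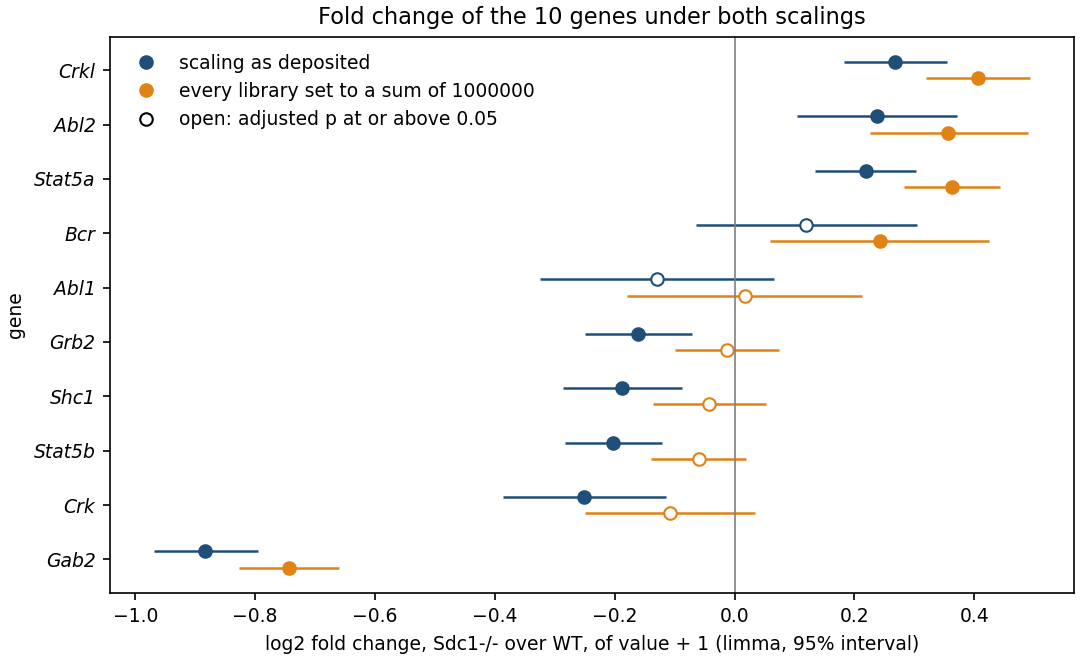
Log2 fold change (Sdc1-/- over WT, of value + 1) of the 10 genes with its 95% interval from limma, under the deposited scaling (blue) and with equal sums of 1000000 per library (orange); open points have an adjusted p at or above 0.05. Equal sums shift every gene to the right, so that Crk, Stat5b, Shc1 and Grb2 lose their call, Bcr gains one, and Gab2 (-0.74), Crkl, Abl2 and Stat5a keep theirs.

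Proteins that bind Bcr or Abl kinases or act beside them on actin were examined as a list of 20 genes, of which 17 were tested. By the same test 3 were higher and 9 lower, and with equal sums 7 were higher and 5 lower. Over all tested genes the shares were 29.3% higher and 31.3% lower, and with equal sums 43.5% and 19.6%. The median log2 fold change was -0.20. Abi3, a subunit of the WAVE complex that drives actin branching, rose from 5.96, 4.52 and 6.67 to 19.4, 16.0 and 22.1, a log2 fold change of 1.59 (limma, adjusted p = 0.00012). Its relative Abi1 fell from 49.9 ± 2.70 to 37.6 ± 2.48 (SD, n = 3), and Abi2 was at 7.09 ± 0.34 and 7.80 ± 0.30, called higher with equal sums and not under the deposited scaling. Sorbs3 and Sh3bp1, which encodes a GTPase-activating protein, rose with log2 fold changes of 0.62 and 0.45. Besides Abr, the largest falls were those of Evl, of the Ena/VASP family (-0.55), and of Hcls1, the blood cell relative of the Abl substrate cortactin (-0.49). Psma7, a proteasome subunit that Abl kinases phosphorylate, had the highest level, 478 ± 13.9 and 468 ± 5.25 (SD, n = 3), and was not called, although it was higher with equal sums (0.12, limma adjusted p = 0.0093).

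Among 30 adaptors, exchange factors and docking proteins that work with the members, 25 were tested, 6 were higher and 5 lower, and the median log2 fold change was -0.009. With equal sums the counts were 14 higher and 4 lower. The background over all tested genes was 29.3% higher and 31.3% lower, and with equal sums 43.5% and 19.6%. Sos1, the exchange factor that Grb2 brings to Ras, rose from 2.97 ± 0.22 to 4.64 ± 0.40 (log2 fold change 0.50, limma adjusted p = 0.0011), whereas Sos2, the more abundant, was at 16.3 ± 0.39 and 16.8 ± 1.41 and not called (SD, n = 3), but was called higher with equal sums. Vav2, an exchange factor for small GTPases, rose with a log2 fold change of 0.65, and the PI3K regulatory subunit Pik3r2 with 0.52. The other regulatory subunit on the list, Pik3r1, fell from 31.6 ± 3.32 to 21.8 ± 0.57 (SD, n = 3), a log2 fold change of -0.51. Nedd9, a docking protein that Crk binds, had the largest fall, from 6.07, 8.14 and 8.22 to 2.59, 2.96 and 3.45 (log2 fold change -1.08, limma adjusted p = 0.00033). The adaptor Nck2 fell with a log2 fold change of -0.64. Ptpn11, which encodes Shp2, the phosphatase that Gab2 recruits, stood at 38.6 ± 0.12 and 36.9 ± 0.20 (SD, n = 3) with an adjusted p of 0.11 from limma, and its log2 fold change of -0.061 turned to 0.084 with equal sums. Hras, the most abundant gene of the list, was at 66.5 ± 1.44 and 68.1 ± 2.78 (SD, n = 3) and not called, and its log2 fold change of 0.033 became 0.18 and passed the test with equal sums.

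Of 21 phosphatases, ubiquitin ligases and other genes known to restrain tyrosine kinase signalling, 20 were tested, and 1 was higher and 8 lower, with a median log2 fold change of -0.11. With equal sums 7 were higher and 4 lower. Of all tested genes 29.3% were higher and 31.3% lower, and with equal sums 43.5% and 19.6%. The largest fall was that of Ptpn1, the phosphatase PTP1B, from 52.5, 50.5 and 52.4 to 25.5, 27.2 and 25.6 (log2 fold change -0.96, limma adjusted p = 3.3e-06). Dok3, an inhibitory docking protein, fell from 21.3 ± 1.61 to 11.3 ± 0.28, and Ptpn6, the phosphatase Shp1, from 121 ± 0.74 to 89.1 ± 3.29 (SD, n = 3). Their log2 fold changes were -0.85 and -0.43. Inppl1, a lipid phosphatase, rose from 1.21 ± 0.23 to 2.91 ± 0.31 (SD, n = 3), a log2 fold change of 0.82. Dok1, a substrate of BCR-ABL, had a log2 fold change of -0.12 close to the threshold (limma, adjusted p = 0.049), a call that held in 6 of 15 alternatives and turned to 0.027 with equal sums, and Dok2 was at 79.1 ± 4.02 and 77.5 ± 2.25 (SD, n = 3) and not called. Ptpn6 and Dok3 are also expressed in myeloid cells of the neutrophil lineage, whose markers were 6 of 6 lower. The part of these cells in the falls was not tested.

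All 9 JAK kinase and other STAT genes were tested, with 5 higher, 3 lower and a median log2 fold change of 0.34. With equal sums 6 were higher and 3 lower. Shares over all tested genes were 29.3% higher and 31.3% lower, and with equal sums 43.5% and 19.6%. The kinases Jak1 and Jak2, which act at cytokine receptors, fell from 71.0 ± 1.05 to 53.6 ± 1.31 and from 19.2 ± 0.85 to 15.2 ± 0.82 (SD, n = 3), log2 fold changes of -0.40 and -0.32. Jak3 rose from 4.4, 3.43 and 4.25 to 9.35, 8.29 and 8.75 (log2 fold change 0.97, limma adjusted p = 0.0001). Stat2 and Stat4 rose with log2 fold changes of 0.77 and 0.54, and Stat3 fell with -0.27.

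The list of 17 known STAT5 target genes had 14 tested members, of which 2 were higher and 7 lower, with a median log2 fold change of -0.11. With equal sums 5 were higher and 4 lower. Among all tested genes 29.3% were higher and 31.3% lower, and with equal sums 43.5% and 19.6%. Cish, a STAT5-induced feedback inhibitor of cytokine receptors, had values of 88.8, 84.1 and 79.6 in WT and of 53.7, 53.2 and 53.3 in Sdc1-/-. It had the largest fall of the list, a log2 fold change of -0.65 (limma, adjusted p = 2.4e-05). The survival gene Bcl2l1 fell from 30.3 ± 0.36 to 23.3 ± 1.13 and Id1 from 33.9 ± 2.53 to 26.3 ± 1.41 (SD, n = 3), log2 fold changes of -0.37 and -0.35. Pim2, a serine/threonine kinase, rose from 39.5 ± 0.43 to 55.1 ± 1.46 and Myc from 124 ± 3.41 to 141 ± 3.76 (SD, n = 3), log2 fold changes of 0.47 and 0.18, while Pim1 fell with -0.21, a call lost with equal sums. Ccnd3, the most abundant, was at 135 ± 3.08 and 134 ± 3.57 (SD, n = 3) and not called, although it was higher with equal sums (0.13, limma adjusted p = 0.010). STAT5 dimers bind TTCNNNGAA, a motif that reads alike on both strands. In RefSeq promoters on GRCm38.p6, from 250 bases before to 50 after a start, it occurred in 8.3% of 32851 windows, in 4 of 16 windows of the list's genes, which matched 11 of the 17, and in 0 of 14 windows of 9 of the 10 members. A gene with more than 1 start has more than 1 window. By gene, 3 of the 11 held the motif, and of these only Cish was high enough to be tested. The Cish promoter on the plus strand held it 2 times, in capitals in these overlapping windows.
Cish, chr9:107296649-107296677: ccgcccagttTTCCTGGAAagttcttgga
Cish, chr9:107296660-107296688: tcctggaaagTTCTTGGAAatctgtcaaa
A match of these letters is not evidence of binding in these cells.

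**Figure D4:**
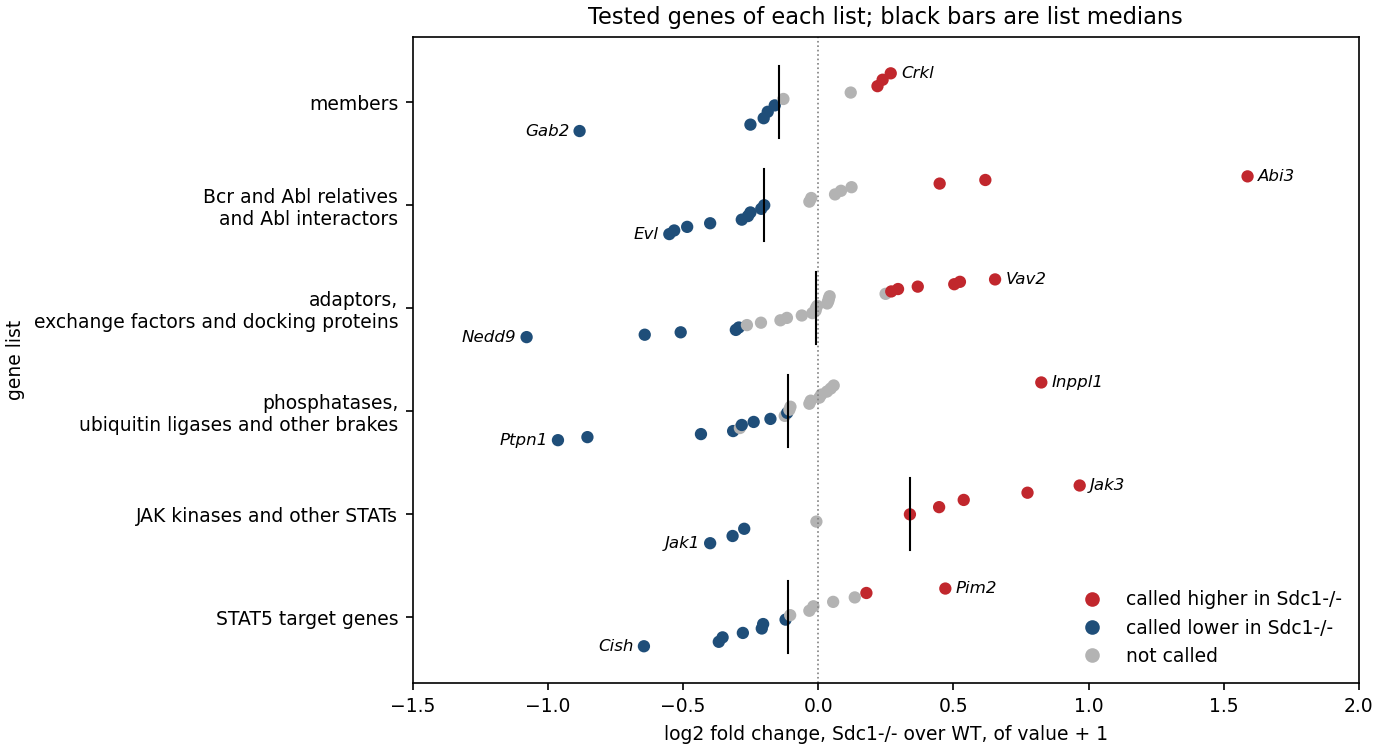
Log2 fold change (Sdc1-/- over WT, of value + 1) of every tested gene in the members and in 5 pathway lists, coloured by call under the deposited scaling, with the list median as a black bar and the extreme genes named. The medians lie between -0.20 and 0.34, and each list holds calls in both directions.

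Other genes had patterns over the 6 libraries close to those of the parent genes, measured as the root mean square difference of log2(value + 1) after centring each gene. Nearest to Bcr were Letmd1 (0.020), Ppp1r10 (0.028) and Tlcd1 (0.028). Letmd1 had values of 25.8, 25.5 and 25.2 in WT and of 30.6, 26.9 and 25.4 in Sdc1-/-, with replicate 1 of Sdc1-/- highest as for Bcr. Nearest to Abl1 were Zfp971 (0.023), St7l (0.038) and Nsmaf (0.039), and each had its highest value of a group in replicate 2, as Abl1 had. All these genes were picked for their likeness over the same libraries, so the shared high libraries follow from the choice.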

How the data were processed

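The authors quantified reads with kallisto, summarised transcripts per gene and deposited one value per gene and library, a signal named TPM that had been rescaled between libraries. The submitters' processing notes name sleuth 0.30.0 and mm10. The kallisto version and the transcriptome are not given in the sources used here. A second deposited table, with p-values, q-values and effect sizes of the authors' Wald test in sleuth, was not used. Groups and replicate numbers came from the sample titles.

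Groups were compared with limma 3.58.1 (R 4.3.3) fitted to log2(value + 1), with no covariate and an empirical Bayes trend, over the 12155 genes whose mean over the 6 libraries reached 1, with Benjamini-Hochberg adjustment. For 5 ratios of related genes a two-sided exact permutation test was used. The study's Wald test in sleuth needs estimates per transcript, which were not used here. A fold change on this scale understates that of low genes. The script was tested on simulated data. Symbols came from GENCODE M21 (GRCm38) for 35454 of 36083 identifiers. The remaining steps used Python 3.11.15, pandas 2.3.3, numpy 2.4.6 and matplotlib 3.10.9. Depth is unknown, so no counting interval is given.

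The members and the lists were chosen with earlier results of these data known. Named are all members and, per list, up to 3 called genes with the largest rise, up to 3 with the largest fall and the most abundant tested gene, plus Sdc1 and the 3 genes nearest in pattern to Bcr and to Abl1. Other genes (Abi1, Abi2, Sos2, Ptpn11, Dok1, Dok2, Pim1, Gab1, Gab3, Kit, Cd34, Myb, Flt3, Hoxa9, Ptprc, Msi2) were chosen after their values were seen. Alternatives changed the pseudocount, the filter on the mean, the scaling and the trend, added a replicate block, or left out a library.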

Additional observations from a re-analysis of the deposited data

How the results depend on the processing

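The smaller differences depended on the scaling. When libraries were scaled to equal sums of 1000000, 1 member instead of 5 was lower, 18 instead of 11 adaptors, exchange factors and docking proteins were called, and Abl1 (0.017), St7l (0.004), Dok1 (0.027), Dok2 (0.12), Ptpn11 (0.084), Ccnd3 (0.13) and Psma7 (0.12) turned to a positive log2 fold change, the last 2 and Dok2 and Ptpn11 past the threshold. With quantile normalization Ccnd3 (0.061), Psma7 (0.023) and Dok2 (0.036) turned too. With each library left out in turn, Dok2 ranged from -0.067 to 0.005 (without WT replicate 1) and Tlcd1 from -0.014 (without Sdc1-/- replicate 1) to 0.15. Over all genes, equal sums gave 5286 higher and 2380 lower genes, against 3564 and 3810. With a minimum mean of 5, where fewer genes are tested, 7 adaptors, exchange factors and docking proteins were called, and Bcr and Abl2 fell below the minimum. With each library left out in turn, 3 members were higher and 5 lower every time, and the 5 ratios of related genes kept their direction, with Bcr over Abl1 between 0.14 and 0.37. The calls of Kit and Hoxa9 were each lost without 3 single libraries. Without a minimum mean, with other pseudocounts, without a variance trend and with the median of ratios as scaling, the members' counts did not change, and with quantile normalization 3 were higher and 4 lower. Same-numbered libraries deviated from their group means with correlations over genes of 0.151, -0.00828 and 0.0185, so the numbers were not taken to pair the libraries. With the replicate block 3 members were higher and 6 lower, Abl1 being added with an adjusted p of 0.022 from limma, and over all genes 3653 were higher and 3971 lower. The ratios' differences were the same with the replicate block, where the smallest p of the exact test is 0.25. Of 921 fold changes recomputed for 62 named genes, 874 kept direction and side of the threshold. Read depth is unknown and limits the lowest genes, such as Abl2 and Bcr.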
